A study of Mus musculus with 2 samples.

Results

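The 4 *Tead* genes and the paired coactivator genes *Yap1* and *Wwtr1* were examined for peaks of DLX2, a homeodomain transcription factor of the developing jaws. The genes were taken by name, and every peak that lay inside a gene or within 100 kb of either end was listed. These 6 genes, of 20560 autosomal protein-coding genes, had 9 of the 10921 regions found in both replicates. They had 23 of the 28061 peaks of replicate 1 and 83 of the 62093 peaks of replicate 2. The labels name the assay CUT&Tag, on cells of the maxillary process, the facial outgrowth that builds the upper jaw. In CUT&Tag an antibody guides a transposase to tag the DNA around its target, but the library protocol in the labels describes sonicated chromatin instead, and which was done here was not settled. Both libraries came from wildtype C57BL/6 embryos at E12.5 with an antibody against DLX2, and form 1 group of 2 replicates. No transgene, treatment, control library or second genotype was used here, so a peak is a local excess of fragments within its own library. The sources used here do not say whether the replicates came from separate litters, so their spread may be technical. Peak lists hold no expression values, and the labelled tissue was therefore not checked against marker genes.

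The TEAD proteins are DNA-binding factors that activate transcription poorly on their own. They recruit YAP, encoded by *Yap1*, or TAZ, encoded by *Wwtr1*, when these coactivators are free to enter the nucleus. The kinases of the Hippo pathway, MST (*Stk3* and *Stk4*) and LATS (*Lats1* and *Lats2*), phosphorylate YAP and TAZ and keep them in the cytoplasm. The pathway restrains organ growth, and YAP and TAZ are needed in neural crest cells for the face to form.

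The sequences just before the transcription start sites show what DLX2 could meet at the promoters of these genes. RefSeq start windows of GRCm38.p6, which hold 250 bases before and 50 after a start site, were given for 4 of the 6 genes, in 7 windows, and *Tead1* and *Tead4* had none. The stretches from 250 to 51 bases before the start site furthest upstream are printed 5′ to 3′ on the coding strand, with capitals for GGAATG, the core of the TEAD site, and for CACGTG, the E-box bound by MNT and other factors of the MYC network. They lie at chr7:45215542-45215741 on the plus strand for *Tead2*, and on the minus strand at chr17:28350856-28351055 for *Tead3*, chr9:8004647-8004846 for *Yap1* and chr3:57575961-57576160 for *Wwtr1*.
Tead2: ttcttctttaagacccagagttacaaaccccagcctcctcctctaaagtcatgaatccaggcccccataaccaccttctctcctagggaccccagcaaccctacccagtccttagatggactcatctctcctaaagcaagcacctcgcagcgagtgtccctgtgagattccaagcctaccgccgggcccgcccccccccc
Tead3: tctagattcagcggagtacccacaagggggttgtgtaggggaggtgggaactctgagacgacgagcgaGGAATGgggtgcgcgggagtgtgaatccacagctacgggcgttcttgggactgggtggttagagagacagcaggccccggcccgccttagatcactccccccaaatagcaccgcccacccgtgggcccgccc
Yap1: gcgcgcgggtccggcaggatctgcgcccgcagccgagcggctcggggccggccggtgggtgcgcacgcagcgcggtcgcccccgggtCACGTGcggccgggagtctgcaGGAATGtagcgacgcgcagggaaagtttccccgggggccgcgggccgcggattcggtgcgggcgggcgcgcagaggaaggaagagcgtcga
Wwtr1: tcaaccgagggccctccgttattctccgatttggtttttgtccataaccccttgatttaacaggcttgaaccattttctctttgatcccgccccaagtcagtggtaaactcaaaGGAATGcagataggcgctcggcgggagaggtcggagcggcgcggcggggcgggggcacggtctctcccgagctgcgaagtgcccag

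A peak of neither replicate touched any of the 7 start windows. Among all 32851 start windows, 0.791% met a replicate 1 peak and 2.69% met a replicate 2 peak. The closest peak to a start site was a replicate 2 peak 1.47 kb away at *Tead3*. *Tead2* had a replicate 2 peak 1.65 kb from its start site, whereas the nearest was 13.3 kb away at *Wwtr1* and 20.9 kb away at *Yap1*. Replicate 1 had nothing closer than 15.7 kb at *Tead2*, 32.5 kb at *Tead3*, 57.8 kb at *Wwtr1* and 68.6 kb at *Yap1*. On either strand, TAATTA and TAATTG, cores of the sites of homeodomain factors such as DLX2, occurred in 0 of the 7 windows and in 12.4% of all windows. GGAATG or GGAATT occurred in 5 of the 7 windows, from 3 of the 4 genes, against 24.9% of all windows, and each match was GGAATG, which occurs in 14.7% of all windows. The windows of *Tead3* overlap each other and both windows of *Wwtr1* hold the same GGAATG, so the windows are not independent. In *Yap1* the E-box began at position -163 and GGAATG at -141 relative to the start site. CACGTG occurs in 7.15% of all windows. ACCACA, the core of the RUNX site, occurred in 0 of the 7 windows and in 16.8% of all. The 7 windows had between 61.3 and 75.3% G and C, against a median of 52.7% over all windows, and the shares are not corrected for this. Only exact matches were counted, so shorter or altered sites are not covered. These matches describe the letters only.

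Peaks were listed at each of the 6 genes in both replicates. *Tead1* had the most peaks, with 10 in replicate 1 and 24 in replicate 2. *Wwtr1* had the fewest, with 1 in replicate 1 and 5 in replicate 2. *Tead2* had 4 and 17 peaks, *Tead3* 4 and 13, *Tead4* 2 and 15, and *Yap1* 2 and 9. Each gene had more peaks in replicate 2, by between 2.4 times at *Tead1* and 7.5 times at *Tead4*. The 6 genes together had 53 ± 42.4 peaks (SD, n = 2), and the replicate 2 number was 3.61 times that of replicate 1, against 2.21 times for the complete lists. With mixed tissue, a weak peak in many cells and a strong peak in few cells cannot be told apart.

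**Figure D1:**
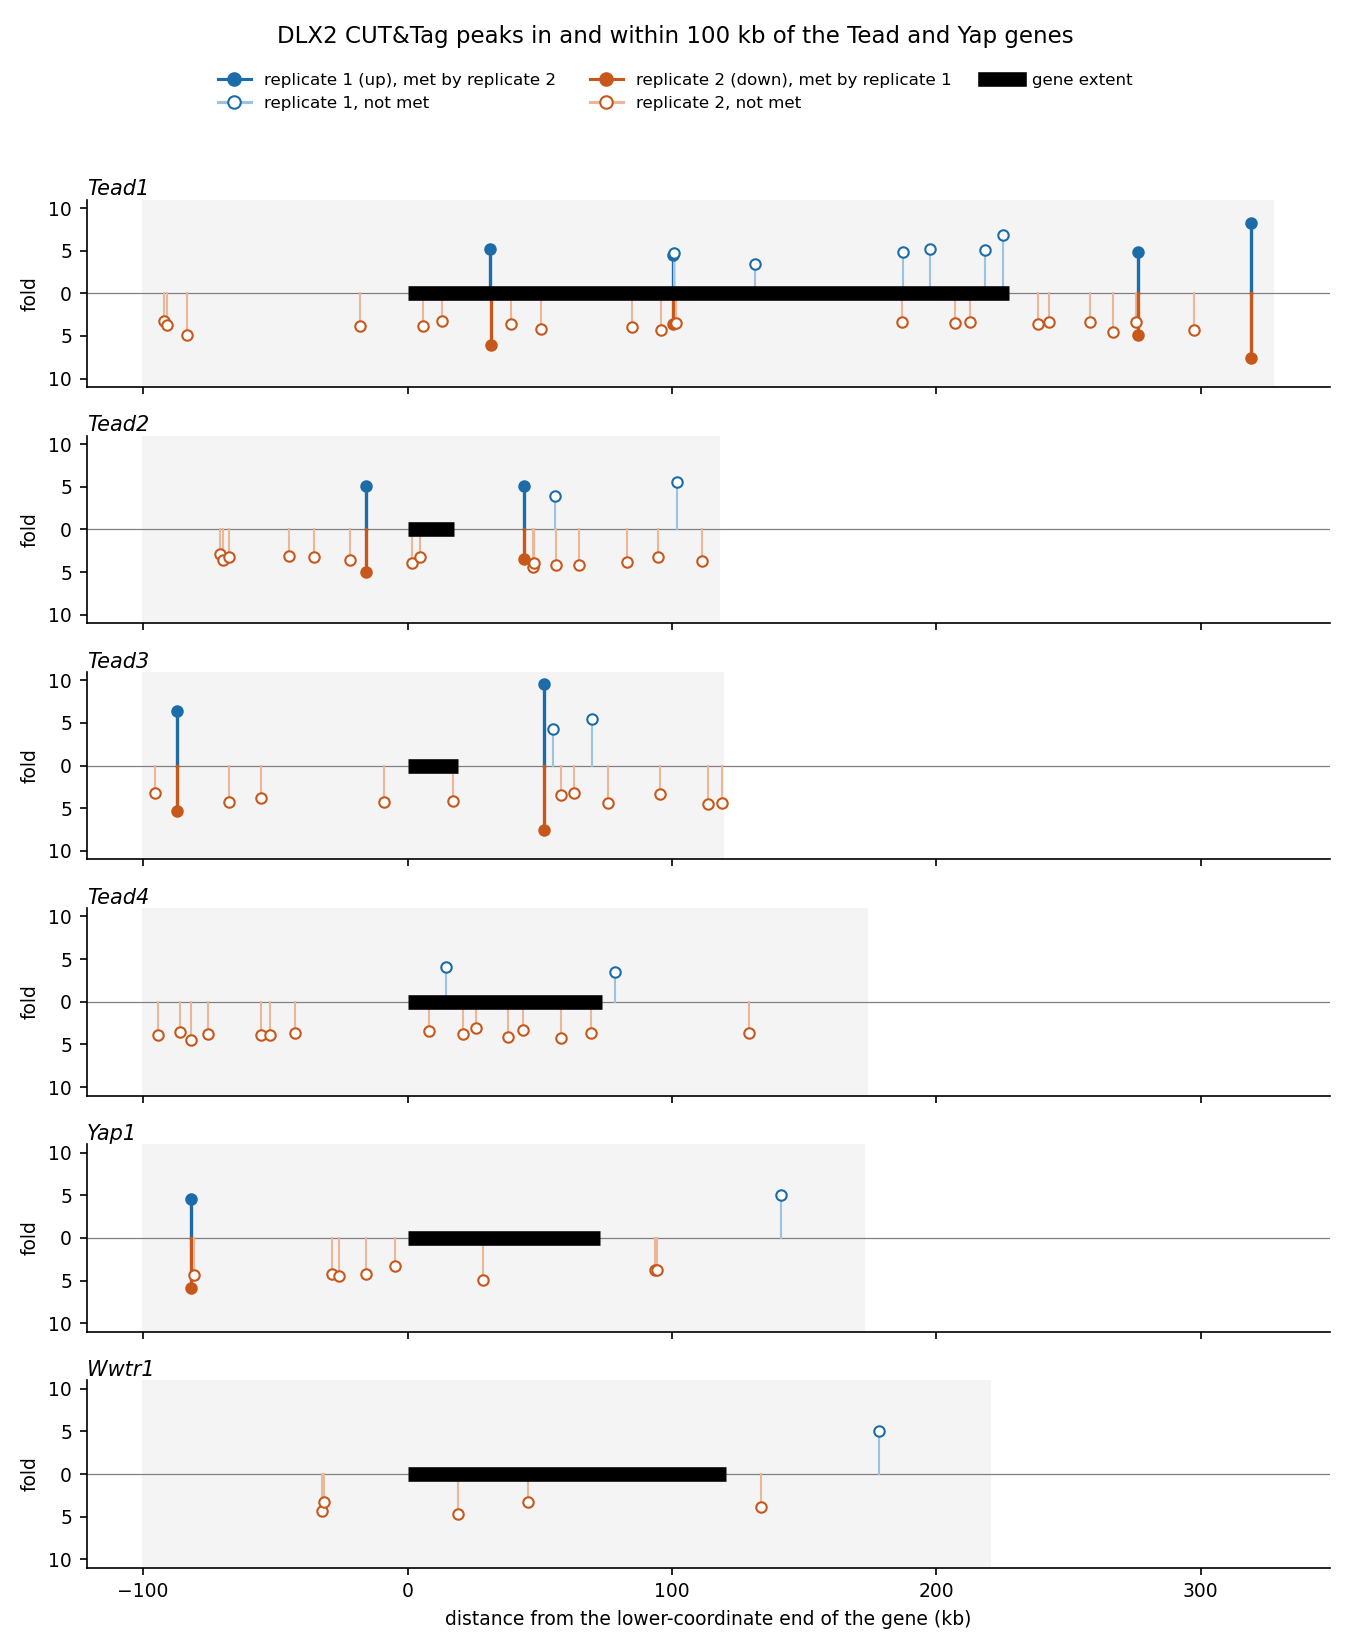
Peaks inside and around each gene, with the distance from the lower-coordinate end of the gene in kb on the horizontal axis and fold enrichment on the vertical axis, upwards for replicate 1 and downwards for replicate 2. Filled points mark the 9 peaks of each replicate that met a peak of the other; 2 of the 9 shared regions lie on a black gene bar, both at *Tead1*, and *Tead4* and *Wwtr1* have open points only.

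Regions covered by a peak of both replicates were found for 4 of the 6 genes. *Tead1* had 4, *Tead2* and *Tead3* had 2 each, *Yap1* had 1, and *Tead4* and *Wwtr1* had 0. Thus 8 of the 9 shared regions were inside or within 100 kb of the 4 *Tead* genes, and 1 was within 100 kb of the 2 coactivator genes. The *Tead* genes are more numerous, so the split is not read as a difference between the 2 kinds of gene. At least 1 shared region within the same distance was found for 63.2% of autosomal protein-coding genes, so having one is usual. Inside the gene, only *Tead1* held shared regions, namely 2, and 15.4% of the protein-coding genes held at least 1. *Tead1* is also the longest of the genes, at 227 kb, compared with 120 kb for *Wwtr1* and between 17.7 and 73.7 kb for the others.

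Counts were therefore also taken per length of window. *Tead1*, *Tead2* and *Tead3* had 9.36, 9.19 and 9.13 shared regions per Mb. These rest on counts of 4, 2 and 2, so 1 region more or fewer would change them strongly. The flanks made up 69.3% of the 6 windows together, and all shared regions of *Tead2* and *Tead3* lay in them. *Yap1* had 3.67 per Mb. The median over protein-coding genes was 4.55 per Mb, and 24.5% of the genes had at least the density of *Tead1*. *Tead4* combined a high density in replicate 2, at 54.8 peaks per Mb against a median of 35.7, with a low density in replicate 1, at 7.31 peaks per Mb against a median of 14.3. *Tead1*, *Tead2* and *Tead3* were denser still in replicate 2, at 56.1, 78.1 and 59.3 peaks per Mb, and were above the median in replicate 1 too. *Wwtr1* was below the median in both replicates, at 3.12 and 15.6 peaks per Mb.

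**Figure D2:**
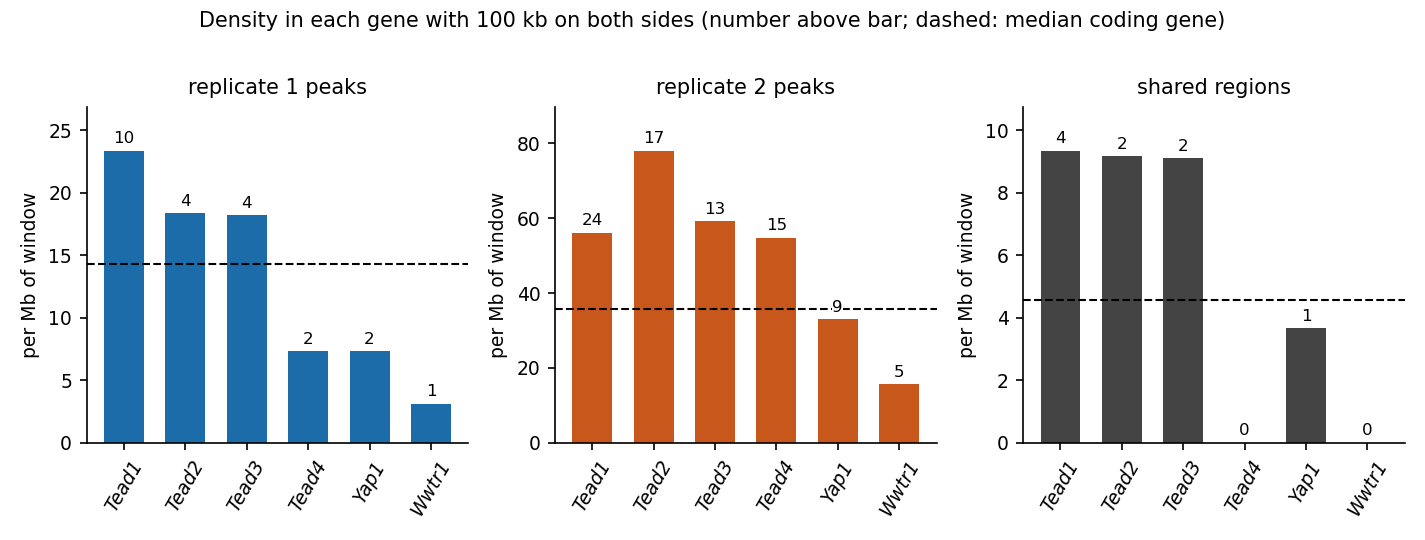
Peaks or shared regions per Mb of window (vertical axis) for each gene (horizontal axis), in replicate 1, in replicate 2 and in both. The number counted stands above each bar and the dashed line is the median over autosomal protein-coding genes: *Tead1*, *Tead2* and *Tead3* are above it in each panel, *Tead4* in replicate 2 alone, and *Yap1* and *Wwtr1* in none.

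*Tead1* encodes the TEAD factor known for the heart and skeletal muscle. It spans positions 112679356 to 112906784 of chromosome 7 in mm10. The first shared region inside the gene, at 112710543 to 112710875, lay 31.2 kb from the lower-coordinate end. Its fold enrichment, which sets the fragments at the summit against a background level of that library, was 5.18 in replicate 1 and 6.10 in replicate 2. The replicate summits were 3 bp apart. The second region inside the gene, at 112779780 to 112779822, was the shortest of the 9, because the peaks of the replicates had only 43 bp in common. Its replicate 1 and replicate 2 folds were 4.55 and 3.57, and its summits were 114 bp apart.

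This second place held more signal than the shared region alone. Replicate 1 had a further peak 398 bp from the nearest replicate 2 peak, and replicate 2 had a further peak 495 bp from the nearest replicate 1 peak, so that each replicate listed 2 peaks close together here. The other shared regions of *Tead1* lay past its higher-coordinate end. At 112955575 to 112955682, 48.8 kb from *Tead1*, a region inside *Rassf10*, a gene of the Ras-association domain family, had replicate 1 and replicate 2 folds of 4.85 and 4.88. At 112998333 to 112998540, 91.5 kb from *Tead1*, the replicate 1 and replicate 2 folds were 8.27 and 7.53 and the summits fell on the same base. The nearest protein-coding gene to this strong region was *Rassf10*, 40.9 kb away, and the annotation placed it within the noncoding genes *Gm33586* and *Gm33527*.

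A strong peak of *Tead1* was seen in replicate 1 alone. It lay inside the gene at 112904370 to 112904622, close to the higher-coordinate end, with a fold of 6.86 and a −log10 q of 5.78. The nearest replicate 2 peak was 12318 bp away. This was the only unmatched peak in the 6 windows with a −log10 q of at least 5. Of all replicate 1 peaks past that value, 83.0% met a replicate 2 peak.

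*Tead3*, a factor prominent in the placenta, spans 28331671 to 28350805 of chromosome 17. It had the strongest of the 9 shared regions, at 28383277 to 28383582, past the higher-coordinate end by 32.5 kb. The replicate 1 and replicate 2 folds there were 9.52 and 7.58, a mean of 8.55 ± 1.37 (SD, n = 2). The region lay between genes, 15.2 kb from *Fkbp5*, which encodes a co-chaperone of the glucocorticoid receptor. Its lower fold was reached by 4.01% of all shared regions. The other shared region of *Tead3*, at 28244434 to 28244704, lay 87.0 kb before the lower-coordinate end and inside *Ppard*, the gene of a nuclear receptor for fatty acids. It had replicate 1 and replicate 2 folds of 6.35 and 5.31. Within *Tead3* itself a single peak was listed, in replicate 2, with a fold of 4.16.

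*Tead2*, which is expressed from the earliest embryo, spans 45215792 to 45233468 of chromosome 7. Its shared region at 45199892 to 45200064, 15.7 kb before the lower-coordinate end, was the closest to a gene of the 7 that lay outside. This region was inside *Kash5*, a gene of meiotic chromosome movement, with replicate 1 and replicate 2 folds of 5.14 and 5.05. The second, at 45259956 to 45260085, lay 26.5 kb past the other end and inside *Slc6a16*, a gene of the solute carrier 6 family. Its replicate 1 and replicate 2 folds were 5.12 and 3.45, the largest relative gap between the replicates among the 9. *Tead2* held 2 peaks of replicate 2 and 0 of replicate 1.

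*Tead4*, required for the trophectoderm of the blastocyst, spans 128227143 to 128300813 of chromosome 6. Here the replicates differed most. Replicate 2 had 7 peaks inside the gene, with 8 more around it, and replicate 1 had 1 inside and 1 outside. None of these peaks met, and the nearest shared region was 101 kb from the gene, just outside the distance used. The folds ranged from 3.08 to 4.46 in replicate 2, with a median of 3.80 against 4.12 for the complete list. In replicate 1 they were 3.51 and 4.04, against a median of 4.33.

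*Yap1* spans 7931999 to 8004638 of chromosome 9. Its shared region at 7850002 to 7850347 lay 81.7 kb before the lower-coordinate end. It was inside *Birc3*, which encodes an inhibitor of apoptosis. The replicate 1 and replicate 2 folds were 4.59 and 5.89. Inside *Yap1* replicate 2 had 1 peak, at 7960556 to 7960715, with a fold of 4.99, and replicate 1 had 0.

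*Wwtr1* spans 57455644 to 57575910 of chromosome 3. Replicate 2 had 2 peaks inside it, the stronger at 57474496 to 57474723 with a fold of 4.64. Replicate 1 had 0 inside and 1 outside, at 57633670 to 57633940, with a fold of 5.05. The nearest shared region was 322 kb from the gene, the greatest distance among the 6 genes.

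The median fold of these shared regions was 5.14 in replicate 1 and 5.31 in replicate 2, against 5.05 and 5.12 over all shared regions. The median of the lower fold of each region was 5.05 against 4.51, and the median length was 208 bp against 151 bp. The fold was higher in replicate 1 for 6 regions and in replicate 2 for 3. In 3 of the 9 regions, the pair at *Tead3* and the distant one of *Tead1*, the −log10 q was at least 5 in both replicates. Over all shared regions 15.6% passed the same rule. The summits of the replicates lay within 50 bp of each other in 6 of the 9 regions, with a median gap of 5 bp against 63 bp over all shared regions. How many of all shared regions had summits within 50 bp, or a higher fold in replicate 1, is not given here. Neither count is therefore read as a trait of these 9 regions.

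**Figure D3:**
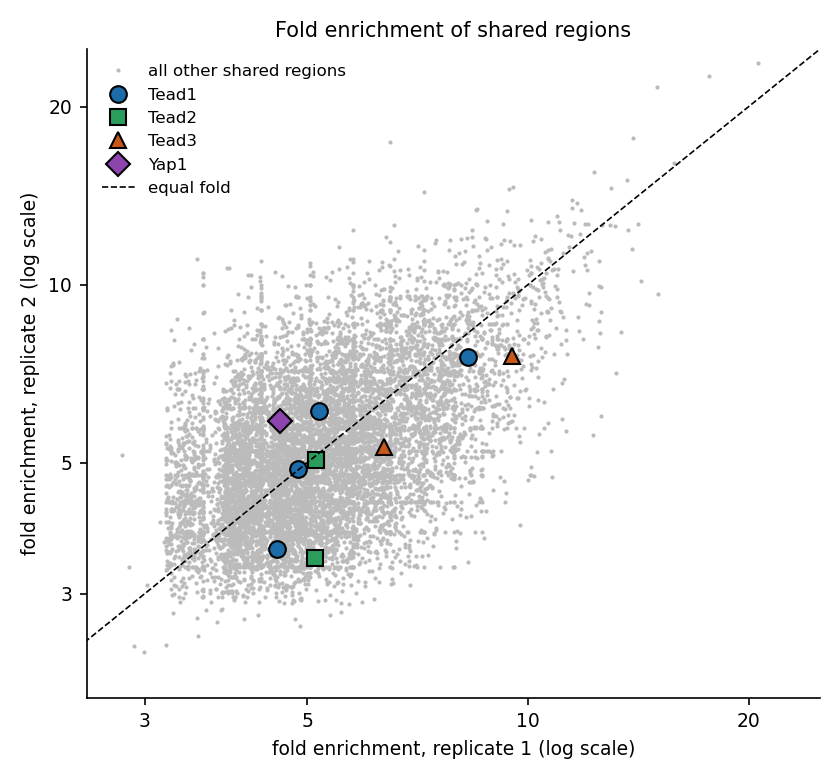
Fold enrichment in replicate 1 (horizontal axis) and replicate 2 (vertical axis), both on log scales, for the 9 shared regions of the *Tead* and *Yap1* genes over all shared regions in grey. The region of *Tead3* with folds of 9.52 and 7.58 and that of *Tead1* with folds of 8.27 and 7.53 stand apart from the other seven, which reach a fold of at most 6.35.

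Of the 9 shared regions, 2 had a member as their nearest protein-coding gene, both inside *Tead1*. The other 7 were nearer to a neighbour, and 5 of them lay inside one, namely *Rassf10*, *Kash5*, *Slc6a16*, *Ppard* and *Birc3*. Distance does not say which gene a region acts on.

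Peaks of replicate 1 near these genes found a partner about as often as in the complete list. There, 9 of 23 peaks were met, or 39.1% (95% Wilson interval 22.2 to 59.2%), against 38.9% of all replicate 1 peaks. In replicate 2, 9 of 83 peaks were met, or 10.8% (interval 5.81 to 19.3%), against 17.2% of all replicate 2 peaks. The intervals cover counting error only. Of the peaks with a −log10 q of at least 5, 3 of 4 in replicate 1 and 6 of 6 in replicate 2 were met by a listed peak of any strength, against 83.0% and 61.4% of all such peaks. Where the partner also had to pass that value, the shares were 75% and 50% of these few peaks. The shares over all peaks given above do not apply to this stricter rule. In the complete lists, 1702 shared regions passed the value in both replicates, against 2876 replicate 1 peaks and 6870 replicate 2 peaks past it.

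Few fragments stood behind these peaks. The number at the summit was inferred from the deposited fold and −log10 p, since the lists give no read totals. In replicate 1 the peaks that met had between 6 and 18 fragments, with a median of 7, and the unmatched ones between 4 and 9, with a median of 6. In replicate 2 the peaks that met had between 8 and 21 fragments, with a median of 15, and the unmatched ones between 6 and 13, with a median of 8. The unmatched peaks thus overlapped those that met in both replicates, at the lower end. The strong region of *Tead3* had 18 fragments in replicate 1 and 21 in replicate 2, over local backgrounds of 0.996 and 1.90. The short region inside *Tead1* had 6 and 8.

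**Figure D4:**
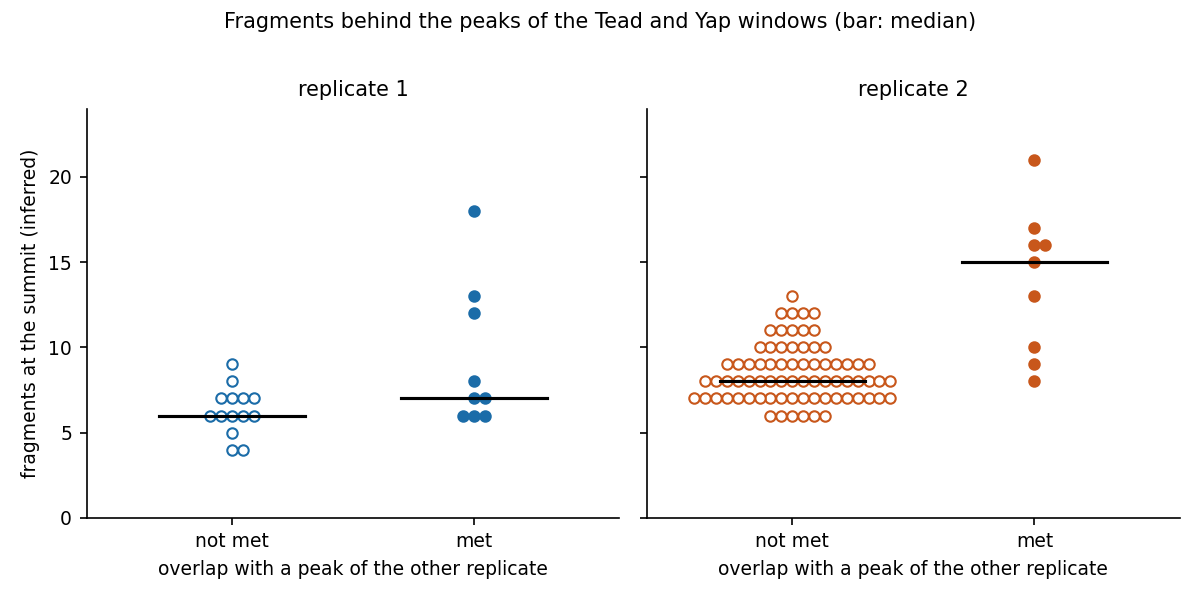
Inferred number of fragments at the summit (vertical axis) for the peaks of the 6 windows, divided by whether a peak of the other replicate overlapped (horizontal axis); each point is a peak and the bar is the median. In replicate 2 the medians are 8 for unmatched and 15 for matched peaks, and in replicate 1 they are 6 and 7.

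Most unmatched peaks had no near neighbour in the other list. Of the 14 unmatched replicate 1 peaks, 3 lay within 500 bp of a replicate 2 peak, and of the 74 unmatched replicate 2 peaks, 3 lay within 500 bp of a replicate 1 peak. Those 6 peaks were inside *Tead1* or near *Tead2*. Shares over all unmatched peaks of each list are not given here, so these counts are not read as particular to these genes. The strongest unmatched replicate 2 peak at *Tead1* had a fold of 4.87, and those at *Tead2*, *Tead3* and *Tead4* had 4.39, 4.51 and 4.46. In replicate 1 the strongest unmatched peaks had folds of 5.51 at *Tead2*, 5.51 at *Tead3* and 4.04 at *Tead4*. For *Yap1* and *Wwtr1* they were 5.05 each in replicate 1. Both peaks had 6 fragments over the lowest background of that list, 0.387, which fixes the fold, so the equal values are no likeness of the 2 genes.

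The remainder of the Hippo pathway was examined with the same rule, using a list of 38 genes. A shared region lay inside or within 100 kb of 29 of the 38 genes, or 76.3% (Wilson interval 60.8 to 87.0%), against the 63.2% given above. It lay inside 15 of them, or 39.5%, against 15.4%. These genes are long, with a median of 58.0 kb against 17.6 kb for all, and 2 of them lie on the X chromosome, which the background leaves out. Per length of window the medians were 4.60 and 4.55 shared regions per Mb. The list was chosen with earlier results of these data known and is no random draw of genes. Its interval therefore covers counting error only and is no test against 63.2%.

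By role, the kinases and scaffolds that hold YAP and TAZ in check had a shared region at 14 of 15 genes (Wilson interval 70.2 to 98.8%), against 63.2% of autosomal protein-coding genes. Their junction and binding partners had one at 9 of 11 (52.3 to 94.9%) and the target genes at 8 of 10 (49.0 to 94.3%), with *Amotl2* and *Lats2* counted in 2 of the groups. The VGLL genes, whose proteins compete with YAP and TAZ for the TEAD factors, had 0 of 4 (up to 49.0%). These shares are not corrected for gene length, and the groups are small. The genes were chosen rather than drawn at random, so the intervals are no test against 63.2%. *Vgll4* had 18 peaks in replicate 2 but 0 shared regions.

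*Taok3*, a kinase upstream of MST and LATS, had 9 shared regions, the most on the list, and 3 of them lay inside the gene. The strongest of the 9 was inside it, at 117130533 to 117130785 of chromosome 5, with replicate 1 and replicate 2 folds of 8.86 and 8.39. *Ptpn14*, a phosphatase that binds YAP, followed with 6, and they were all inside the gene. The kinase genes *Stk4* and *Map4k4*, *Amotl1*, whose angiomotin product binds YAP, and *Fat1*, an atypical cadherin, had 4 each. Of these 4, 0 lay inside *Stk4* and 1 each inside *Map4k4*, *Amotl1* and *Fat1*. The strongest region of *Fat1* lay 6.45 kb outside the gene with replicate 1 and replicate 2 folds of 10.2 and 12.1, and that of *Stk4* lay 35.2 kb outside with 10.5 and 10.2. Both were above the strongest region of the *Tead* genes in each replicate. Among the classic YAP target genes, *Ccn2* had 2 shared regions nearby, and *Ccn1* and *Ankrd1* had 0.

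**Figure D5:**
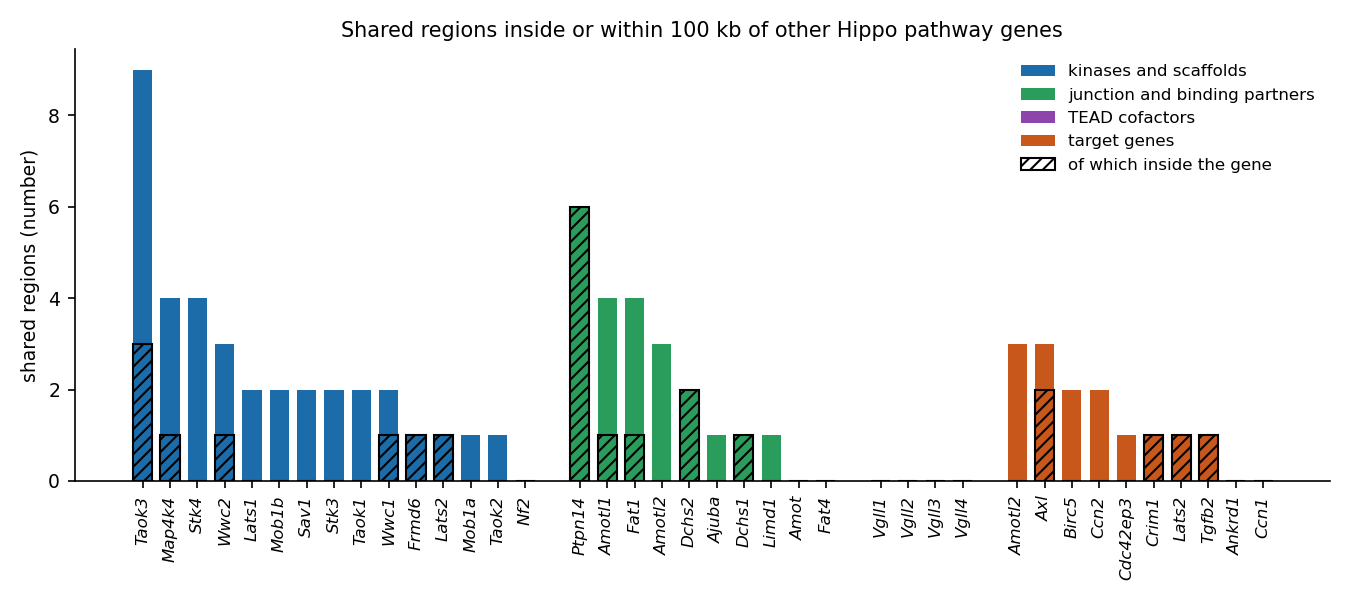
Number of shared regions inside or within 100 kb (vertical axis) of the other Hippo pathway genes (horizontal axis; 1 gene of the list is not shown), coloured by role, with the part inside the gene hatched. *Taok3* has 9 and *Ptpn14* 6, and the 4 TEAD cofactor genes have 0.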

How the data were processed

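DLX2 CUT&Tag peaks of 2 wildtype libraries were analysed, numbered in the order of their records. The submitters' processing notes name Trim Galore 0.4.5, Bowtie 1.1.2, MACS2 2.2.7 and mm10, and the methods of the study name bowtie2. The labels describe sonicated chromatin, the methods transposase tagging, and which holds was not settled. Caller settings are not given in the sources used here. The authors called peaks for each sample on its own and deposited, for each, a score (−log10 q multiplied by 10 and cut to a whole number), a fold enrichment, a −log10 p and −log10 q, and a summit. The deposited lists stop at a q of 0.1.

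Shared regions were stretches covered by a peak of each replicate (1 bp or more in common, checked with bedtools 2.31.1). Genes were RefSeq extents of GRCm38.p6, which is mm10, without strand or exons, so exons and introns were not told apart; genes listed before position 3000000 were left out. Fragments were recovered as the whole number for which fold is fragments plus 1 over background plus 1 and p is the Poisson tail above it (tolerance 0.001, 100% of peaks), an inference whose arithmetic was tested on simulated data. The lists give no read totals, so the depth is unknown. The lowest background was 0.387 fragments in replicate 1 and 1.10 in replicate 2. Several peaks, among them some of *Yap1* and *Wwtr1*, had this lowest background, so their folds depend on the fragment number alone. Peak sequences were not analysed here.

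No test between groups was possible with 1 group, so no p is given. The named items were the 6 genes with their shared regions, the strongest unmatched peak of each replicate, the nearest protein-coding genes and the 6 listed Hippo genes with the most shared regions; *Vgll4*, *Ccn1*, *Ccn2*, *Ankrd1* and the single peak within *Tead3* were added after their values were seen. Of the Hippo list, 1 gene is counted but not reported here. The members and lists were chosen with earlier results of these data known. Alternatives were stricter thresholds, other overlaps, other distances, nearest genes and each replicate alone. Scripts ran in Python 3.11.15 with pandas 2.3.3, scipy 1.17.1, numpy 2.4.6 and matplotlib 3.10.9.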

Additional observations from a re-analysis of the deposited data

How the results depend on the processing

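Of 64 alternative values of the main counts, shares and folds, 27 stayed within 1.5 times the main count, the interval of the share or the spread of the fold, and 37 moved, 25 down and 12 up. With a −log10 q of at least 5 required in both lists, the 6 genes had 4 and 6 peaks, 3 shared regions (1.73 per Mb) at 2 genes, 75% and 50% of peaks met and a median lower fold of 7.53, and 12 Hippo genes had a shared region. At a −log10 p of 7 or more in both, the lists held 6 and 9 peaks and 3 shared regions (1.73 per Mb) at 2 genes. In replicates 1 and 2, 50% and 33.3% of the peaks were met, and 17 Hippo genes had a shared region. Folds of 5 or more in both left 13 and 6 peaks and 5 shared regions (2.89 per Mb). Here 38.5% of replicate 1 peaks and 83.3% of replicate 2 peaks were met, and 18 Hippo genes had a shared region. In replicate 1 the shares of 50% and 38.5% stayed within the interval of the main share, 39.1%. The fewer peaks follow from the thresholds themselves, and the cause of the higher shares was not tested. Shares of all protein-coding genes at these thresholds are not given here, nor are shares of all peaks met at the −log10 p and fold thresholds. The Hippo counts and the shares of peaks met there therefore cannot be called high or low. Inside the genes only there were 9 and 25 peaks, 2 shared regions at 1 gene, and 15 Hippo genes. Within 50 kb replicate 2 had 55 peaks, and 6 shared regions remained at 3 genes, with 0 at *Yap1*. With at least 50% of each peak shared, 6 shared regions remained at 4 genes. Within 200 kb the numbers were 46 and 137 peaks and 18 shared regions. By the nearest protein-coding gene there were 2 shared regions, at 1 gene, and 20 Hippo genes had a shared region. Shares of all protein-coding genes under the rules of 50 kb, 200 kb, 50% shared or nearest gene are not given here. Counts under those rules therefore cannot be called high or low. Each replicate alone, where unshared peaks enter, gave between 23 and 83 peaks, or 13.3 to 48.0 per Mb.

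Of 66 alternative counts for single genes, 36 moved by more than 1.5 times, 21 down and 15 up. *Tead4* and *Wwtr1* had counts above 0 with either replicate alone, and *Tead4* also had 1 shared region within 200 kb. With 2 replicates, no control library and at most 21 fragments a peak, occupied sites cannot be told apart from background that both libraries share. The planned motif search in the shared regions was not run, since it needs a genome sequence.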
